A study of Homo sapiens with 6 samples.

Results

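Translation initiation and elongation factors were examined in COV434 cells with and without BRG1. The genes were chosen by name. Every gene whose symbol starts with EIF1 to EIF6, EEF1 or EEF2 was taken, while the eIF2 alpha kinases (EIF2AK), the eIF4E-binding repressors (EIF4EBP) and the methyltransferases of elongation factors (EEF1AKMT, EEF2KMT) were set aside. This gave 58 of the 19899 genes in the table. COV434 is an established ovarian line, placed by the study among its SCCOHT lines, which model a small cell ovarian cancer that lacks BRG1. BRG1 is the SWI/SNF chromatin remodeling ATPase encoded by SMARCA4. Parental COV434 cells received a control plasmid (pCDNA3-neo, named Control, n = 3) or a BRG1 plasmid (PBJ5-BRG1, named BRG1, n = 3). In both groups pBABE-puro was co-transfected with FuGENE 6, puromycin at 2 to 3 µg/ml was added 24 hours later, and pellets were taken after 3 days of selection. Each sample is therefore a pool of transiently transfected, puromycin-selected cells, and the Control samples carry the same selection. The replicates are described as biological, and each group numbers them 1 to 3.

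Initiation factors bring the initiator tRNA, the mRNA and both ribosomal subunits together at a start codon, and elongation factors then drive the ribosome along the coding sequence. The eIF2 complex carries the initiator tRNA, eIF2B reloads eIF2 with GTP, eIF3 is the large scaffold on the small ribosomal subunit, and the eIF4 factors bind the cap and unwind the leader of the mRNA. In elongation, eEF1A delivers charged tRNA, the eEF1B subunits reload eEF1A with GTP, and eEF2 moves the ribosome to the next codon. Many mRNAs of the translation machinery begin with a C and a run of pyrimidines, the terminal oligopyrimidine (TOP) tract, and such mRNAs are known as a group whose translation is controlled together by mTOR signalling.

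Libraries held between 29699741 and 63613710 estimated counts, and BRG1 replicate 3 was the shallowest. SMARCA4 rose from 1439, 1676 and 1538 normalised counts in Control to 108655, 79075 and 78589 in BRG1 samples, plasmid transcripts included (log2 fold change 5.84, standard error 0.18, DESeq2 adjusted p 5.4e-216). Mitochondrial genes took 5.18% to 6.00% of counts in Control and 4.13% to 4.61% in BRG1 samples, so the groups did not overlap. Of 4 hematopoietic markers none was called, with CD3E at 0 in 5 of 6 samples and a summed level of 347 to 679 normalised counts in Control and 371 to 749 in BRG1 samples, nearly all of it PTPRC. Of 3 endothelial markers, VWF and CDH5 were called higher and PECAM1 was not, and their summed level was 25.6 to 91.6 in Control and 3350 to 3936 in BRG1 samples. The part of the mitochondrial share and of these markers in the results on translation factors was not tested.

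Translation factors were called lower or did not pass the test, and none was called higher. DESeq2 gave an adjusted p for 57 factors and called 9 of them lower (15.8%) and 0 higher in BRG1 samples, where it called 1.84% of all tested genes lower and 11.0% higher. The 9 were the elongation factor genes EEF1A1, EEF1B2, EEF1G and EEF2, the eIF3 subunit genes EIF3E, EIF3H, EIF3L and EIF3M, and the helicase cofactor gene EIF4B. edgeR called 0 higher and 8 lower, EIF3M being the difference, against 9.57% and 1.02% of all genes it tested. At an unadjusted DESeq2 p under 0.05 the counts were 0 higher and 15 lower, beside 15.1% and 5.53% of all tested genes. The decreases were moderate. The 9 log2 fold changes lay between -0.86 and -0.46, and no member reached a log2 fold change of -1 among those with a mean of at least 100 normalised counts. Because RNA came from whole pellets, fewer cells of a type and less RNA per cell cannot be told apart in any of these values.

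Below the threshold the same side prevailed. Of the 57, 42 had a log2 fold change below 0 and 15 above 0, with a median of -0.16, while the median of all tested genes was -0.01. In 24 of the 57 all BRG1 samples lay below all Control samples, an arrangement found in 9.92% of all tested genes, and in 0 did all BRG1 samples lie above, an arrangement found in 16.7% of all tested genes. The remaining 33 overlapped. Within replicate numbers 1, 2 and 3 the median log2 fold change of the 57 was -0.11, -0.15 and -0.14. Same-numbered Control and BRG1 samples deviated together over all genes, and a DESeq2 fit blocked on the replicate number called 17 factors lower and 0 higher, while it called 6.62% of all genes lower and 13.4% higher. The 17 held all 9 and added EIF2A, EIF2B2, EIF2S3, EIF3C, EIF3CL, EIF3D, EIF3F and EIF3K. With the block edgeR called 14 lower and 0 higher, beside 5.68% and 13.7% of all genes.

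**Figure D1:**
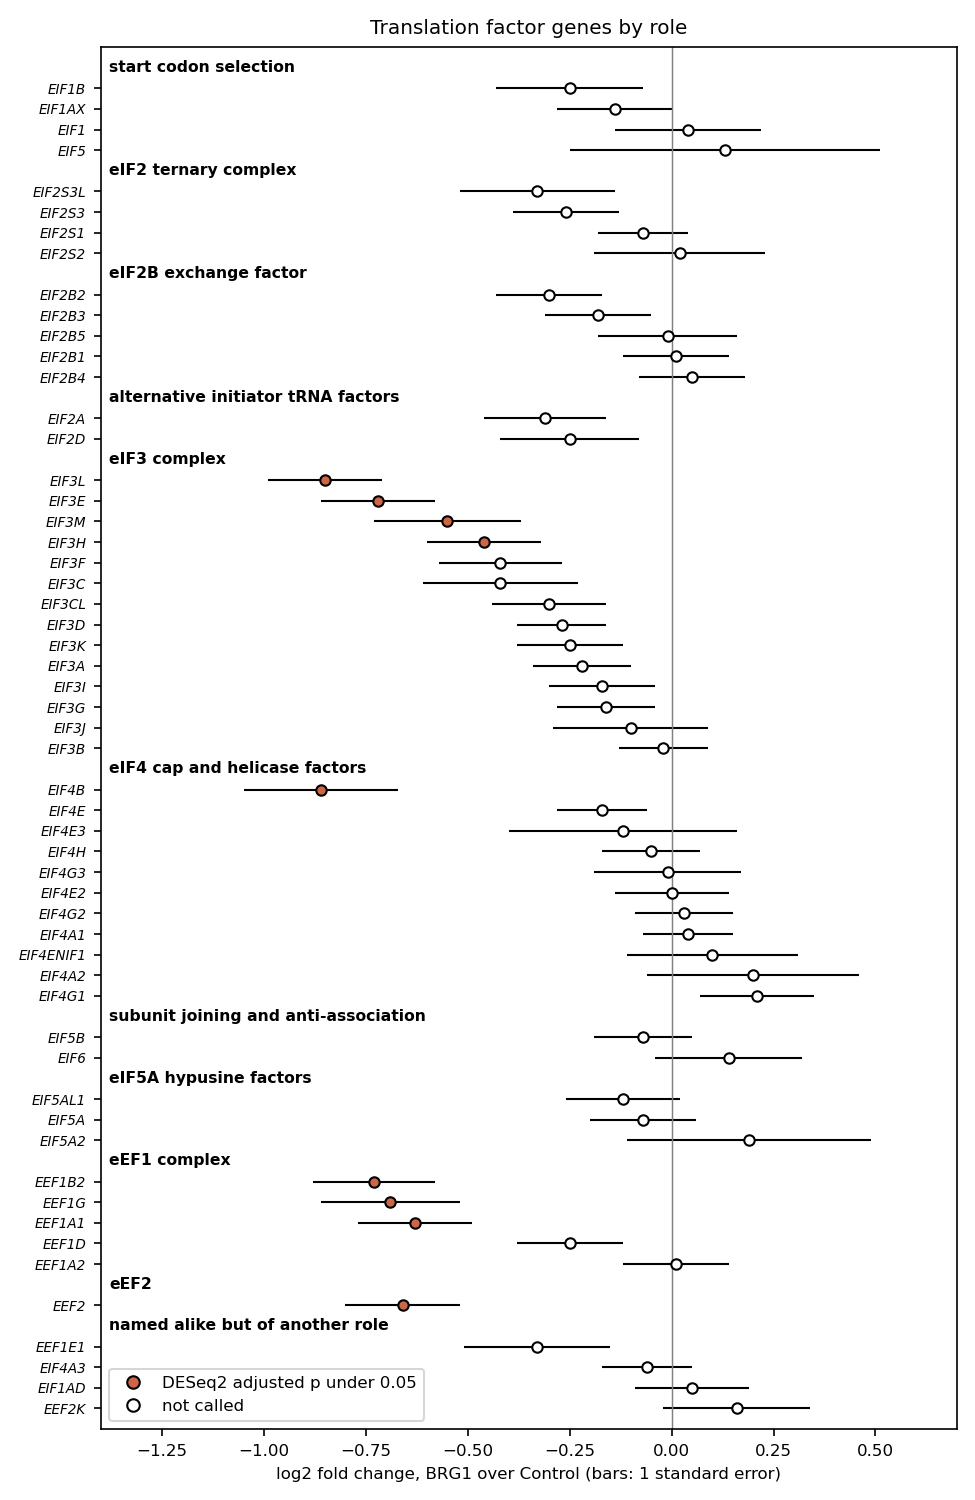
Log2 fold change (BRG1 over Control, x axis) of 55 factors, grouped by role, with bars of 1 standard error from DESeq2 (3 samples a group). The 9 filled points, between -0.86 and -0.46, passed an adjusted p under 0.05, and all of them belong to eIF3, eIF4, eEF1 or eEF2.

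The start sites of these genes were read to see which mRNAs could begin with a TOP tract. The table of RefSeq promoters (GRCh38.p14) held a window for 48 of the 58 factors. Not matched were EEF1A2, EEF1D, EIF2S2, EIF2S3L, EIF3A, EIF3CL, EIF3E, EIF3G, EIF3H and EIF3L. A tract was defined as a C at the annotated start followed directly by at least 4 bases that are each C or T, read on the strand of the transcript only. It was present in 11 of the 48 (22.9%), with 4 to 9 pyrimidines after the C, and in 1104 of all 27305 windows (4.04%). The following 30 bases, 10 before the start and 20 from it, show the tract in capitals for the 4 genes called lower that have it, for 2 genes that were called with the replicate block and for EIF4A2, which has the tract and a log2 fold change above 0.
EEF1A1 (chr6:73521013-73521042, minus strand): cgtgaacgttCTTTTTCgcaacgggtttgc
EEF2 (chr19:3985444-3985473, minus strand): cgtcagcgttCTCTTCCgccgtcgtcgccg
EIF4B (chr12:53006446-53006475, plus strand): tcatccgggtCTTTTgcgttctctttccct
EIF3M (chr11:32583821-32583850, plus strand): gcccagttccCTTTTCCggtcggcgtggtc
EIF3F (chr11:7987327-7987356, plus strand): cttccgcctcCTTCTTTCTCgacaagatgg
EIF2S3 (chrX:24054946-24054975, plus strand): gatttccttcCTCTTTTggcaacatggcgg
EIF4A2 (chr3:186783567-186783596, plus strand): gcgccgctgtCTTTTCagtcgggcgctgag
The windows of 2 further called genes and of 3 cap-complex genes that were not called have no tract at the annotated base and are shown for contrast.
EEF1G (chr11:62573872-62573901, minus strand): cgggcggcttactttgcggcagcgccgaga
EEF1B2 (chr2:206159599-206159628, plus strand): aagtggccccagcctcgaggccgggcgtct
EIF4A1 (chr17:7572815-7572844, plus strand): ggcactccgccctagtttctaaggatcatg
EIF4G1 (chr3:184314596-184314625, plus strand): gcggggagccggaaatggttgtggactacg
EIF4E (chr4:98929114-98929143, minus strand): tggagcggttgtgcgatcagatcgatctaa
A match is a description of these letters at an annotated start, and the start used in COV434 cells was not measured here.

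The highest levels belonged to some of the elongation factors. Per kilobase of the canonical transcript, EEF1A1 (244180 normalised counts per kb in Control), EEF1G (102147) and EEF2 (77598) were the most abundant of all 58, and all of them fell. EEF1A1 (chromosome 6, 73489308 to 73525587), the tRNA-delivering factor of most cell types, had 834145, 867374 and 871161 normalised counts in Control and 559244, 490376 and 615658 in BRG1 samples. Every BRG1 sample lay below every Control sample, and the mean fell by 35.3% (log2 fold change -0.63, standard error 0.14, DESeq2 adjusted p 8.3e-05). Pseudogene copies of EEF1A1 are many, so its count is uncertain to the extent that reads were shared with them.

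Subunits of the exchange complex of eEF1A fell too. EEF1B2 (chromosome 2, 206159585 to 206162928), which encodes the exchange subunit that reloads eEF1A, had 23294, 26447 and 23488 normalised counts in Control and 13286, 14389 and 16499 in BRG1 samples, and fell by 39.7% (log2 fold change -0.73, DESeq2 adjusted p 1.1e-05). EEF1G (chromosome 11, 62559596 to 62574086), the structural gamma subunit, had 132403, 149374 and 161337 in Control and 86510, 81118 and 107178 in BRG1 samples, and fell by 38.0% (log2 fold change -0.69, DESeq2 adjusted p 0.000629). For both genes the highest BRG1 sample was replicate 3 and stayed below the lowest Control sample. EEF1D, the other exchange subunit, also separated the groups, with 20564, 21636 and 19199 against 18599, 15731 and 17376 normalised counts, but its log2 fold change of -0.25 did not pass the test (DESeq2 adjusted p 0.276). Another annotated gene shares 99.7% of the exonic bases of EEF1G, and other genes share 34.0% in EEF1D and 16.4% in EEF1B2, so these values can hold reads of those genes.

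EEF2 (chromosome 19, 3976056 to 3985463), the translocation factor, had 243005, 227313 and 264847 normalised counts in Control and 163040, 138163 and 164319 in BRG1 samples. The gap between the groups exceeded the range within each, and the mean fell by 36.7% (log2 fold change -0.66, standard error 0.14, DESeq2 adjusted p 5.3e-05). Within replicate numbers the BRG1 level was 0.671, 0.608 and 0.620 of the Control level. EEF2K, the kinase that inhibits eEF2, had 1654, 1360 and 1273 normalised counts in Control and 1759, 1619 and 1421 in BRG1 samples, with a log2 fold change of 0.16 (95% interval -0.18 to 0.51). The level of this kinase overlapped between groups.

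EEF1A2 was also not called. It encodes the tRNA-delivering isoform typical of muscle and neurons and had 24713, 24769 and 27941 normalised counts in Control and 27253, 26224 and 24258 in BRG1 samples. Its log2 fold change of 0.01 had a 95% interval of -0.24 to 0.25, which does not reach the estimate for EEF1A1. Counting EEF1A2 per 100 counts of EEF1A1 within each sample gave 2.96, 2.86 and 3.21 in Control and 4.87, 5.35 and 3.94 in BRG1 samples. The ratio was higher in every BRG1 sample than in every Control sample, by 0.64 on the log2 scale, yet the two-sided exact permutation test of 3 against 3 gave p = 0.1, the smallest it can give, and 0.4 after adjustment over the 8 pairs compared. Paired by replicate number the exact p was 0.25, again the smallest possible.

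**Figure D2:**
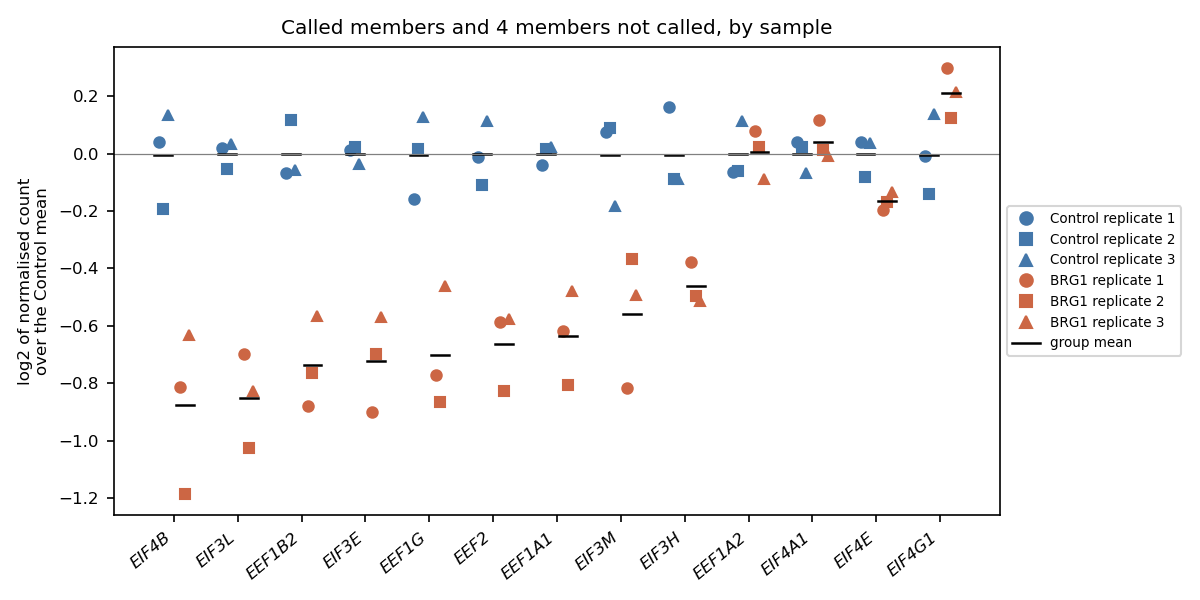
Log2 of the normalised count over the Control mean (y axis) in each of the 6 samples for the 9 factors called lower and for EEF1A2, EIF4A1, EIF4E and EIF4G1, which were not called. Marker shapes give the replicate number, black bars the mean of the 3 log2 values, and the BRG1 samples of all 9 called factors lie below their Control samples.

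All 14 eIF3 genes had a log2 fold change below 0. Their median was -0.28, 4 were called lower by DESeq2 and 3 by edgeR, and with the replicate block DESeq2 called 9 and edgeR 7. EIF3L (chromosome 22, 37848868 to 37889407) had 30338, 28878 and 30621 normalised counts in Control and 18448, 14702 and 16863 in BRG1 samples, and fell by 44.3% (log2 fold change -0.85, standard error 0.14, DESeq2 adjusted p 3.4e-08). EIF3E (chromosome 8, 108162787 to 108443496) had 35632, 35877 and 34492 in Control and 18940, 21806 and 23791 in BRG1 samples, and fell by 39.1% (log2 fold change -0.72, DESeq2 adjusted p 4.4e-06). Both are subunits of the eIF3 core, and in both the gap between the groups was wider than the range within either group. In EIF3L, 51.8% of exonic bases also lie in exons of other annotated genes.

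EIF3M and EIF3H were called with less certainty. EIF3M (chromosome 11, 32583798 to 32606264) had 40835, 41220 and 34137 normalised counts in Control and 22010, 29997 and 27558 in BRG1 samples (log2 fold change -0.55, DESeq2 adjusted p 0.0179). Its call was lost with edgeR (adjusted p 0.0553) and with limma-voom (adjusted p 0.0528), and in DESeq2 without Control replicate 1 (adjusted p 0.152), Control replicate 2 (0.146) or BRG1 replicate 1 (0.0769). EIF3H (chromosome 8, 116642130 to 116766925) had 16337, 13736 and 13720 in Control and 11248, 10360 and 10216 in BRG1 samples (log2 fold change -0.46, DESeq2 adjusted p 0.00878). Its call was lost without Control replicate 1 (adjusted p 0.0831) or BRG1 replicate 2 (0.0948). With the replicate block both were called, at DESeq2 adjusted p-values of 0.000212 for EIF3M and 4.1e-06 for EIF3H. The edgeR adjusted p-values with the block were 0.0227 and 0.00705.

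EIF3F lay just outside the threshold. It had 16621, 14792 and 15522 normalised counts in Control and 13536, 10979 and 10578 in BRG1 samples. Its log2 fold change of -0.42 gave an adjusted p of 0.0514 in DESeq2 (with the block 0.000132, and 0.00934 in edgeR with the block). EIF3C, a core subunit, had 13502, 18169 and 13625 against 9479, 12053 and 12348, and its near-identical copy EIF3CL had 9722, 11226 and 10215 against 7564, 8862 and 8945. Reads of this pair cannot be assigned with certainty, and both were called only with the block (DESeq2 adjusted p 0.00375 and 0.00988, edgeR adjusted p 0.0369 and 0.0421). EIF3A, the largest subunit, had 22283, 22798 and 20340 against 18414, 19484 and 18251, a separation that passed neither fit (DESeq2 adjusted p 0.266, and 0.0517 with the block).

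Grouping the subunits by structure was done after the values had been seen and was not tested. The octamer of PCI and MPN domain subunits (EIF3A, EIF3C, EIF3E, EIF3F, EIF3H, EIF3K, EIF3L and EIF3M) had a median log2 fold change of -0.44, with all 8 separated between groups and 4 called lower. The 5 subunits outside it (EIF3B, EIF3D, EIF3G, EIF3I and EIF3J) had a median of -0.16, with 2 separated and 0 called. Of all tested genes, 9.92% had all BRG1 samples below all Control samples, and 1.84% were called lower. With the block DESeq2 called 7 of the octamer lower and 1 of the others, EIF3D, and edgeR called 6 and 0. These fits called 6.62% and 5.68% of all genes lower. EIF3B, an RNA-binding subunit, had 12606, 12843 and 11905 normalised counts in Control and 12562, 12004 and 12269 in BRG1 samples (95% interval of the log2 fold change -0.23 to 0.19).

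**Figure D3:**
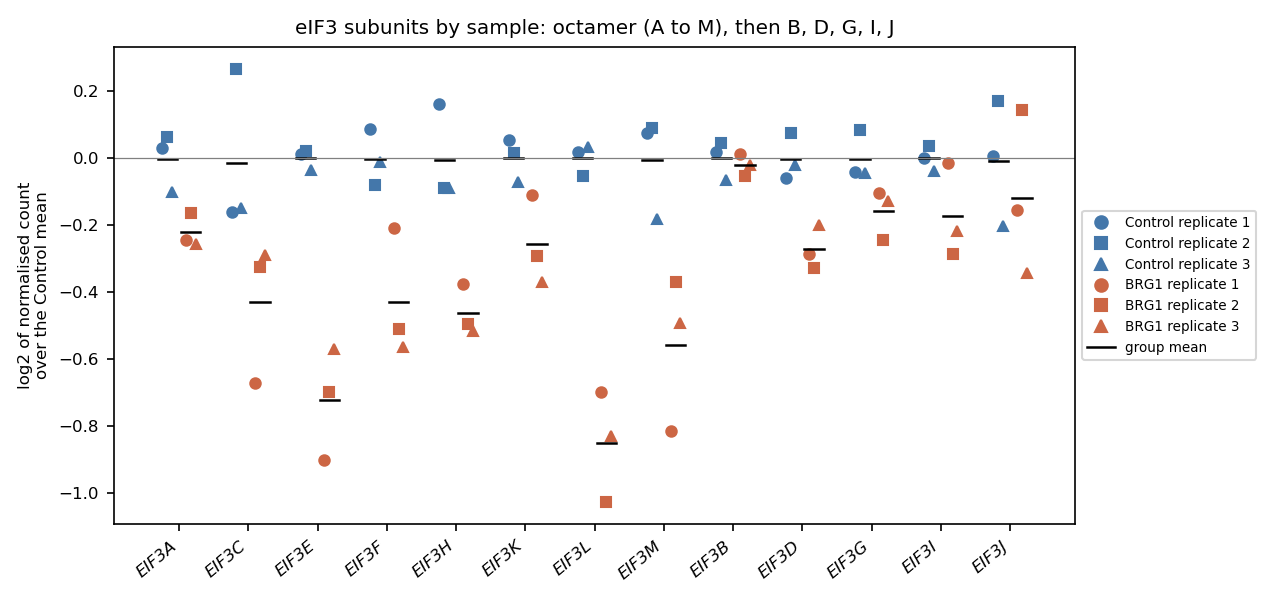
Log2 of the normalised count over the Control mean (y axis) of 13 eIF3 genes in each of the 6 samples, the octamer subunits first and the 5 others after them. Marker shapes give the replicate number and black bars the group mean. In all 8 octamer genes the BRG1 samples lie below the Control samples, and in EIF3B, EIF3I and EIF3J the groups overlap.

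In the cap-binding and helicase group 1 of 12 genes was called lower, beside 1.84% of all tested genes. EIF4B (chromosome 12, 53006282 to 53042215), which stimulates the eIF4A helicase, had 43874, 37314 and 46784 normalised counts in Control and 24298, 18760 and 27558 in BRG1 samples. This was the largest fitted decrease among members with a mean of at least 100 normalised counts, 44.8% in the mean (log2 fold change -0.86, standard error 0.19, DESeq2 adjusted p 0.000147, edgeR adjusted p 0.0108). EIF4H, a related cofactor of eIF4A, had 22219, 21579 and 21332 in Control and 22696, 20615 and 19688 in BRG1 samples (log2 fold change -0.05, 95% interval -0.28 to 0.18). The difference between both cofactors was not tested. An antisense gene, TNS2-AS1, covers 12.4% of the exonic bases of EIF4B.

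The cap complex itself showed no called change. EIF4E, the cap-binding protein gene, had 4184, 3850 and 4182 normalised counts in Control and 3554, 3621 and 3710 in BRG1 samples, which separated the groups but did not pass the test (log2 fold change -0.17, DESeq2 adjusted p 0.462). EIF4A1, the main helicase gene, had 42302, 41795 and 39193 against 44531, 41432 and 40854 (95% interval of the log2 fold change -0.18 to 0.26), and exons of SENP3-EIF4A1 and of small nucleolar RNAs share 47.4% of its exonic bases. EIF4G1, the scaffold that joins eIF4E to eIF4A, had 21099, 19253 and 23353 against 26095, 23134 and 24660. Its log2 fold change of 0.21 was the highest of the 57 (95% interval -0.06 to 0.48), and the groups overlapped. EIF4ENIF1, an eIF4E-binding transport protein gene, had a log2 fold change of 0.10, and EIF4E1B was near the limit of detection with 1.66 to 15.1 normalised counts in the 6 samples.

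The initiator tRNA complex had 0 called members without the block. EIF2S1, the subunit that the stress kinases phosphorylate, had 5764, 5544 and 5410 normalised counts in Control and 5114, 5629 and 5227 in BRG1 samples (95% interval of the log2 fold change -0.29 to 0.16). EIF2S2 had 11029, 13701 and 9020 against 11195, 13053 and 9978, where same-numbered samples were alike. EIF2S3, the subunit that holds GTP and the tRNA, had 20776, 22765 and 24214 against 17463, 19030 and 20160, and was called only with the block (log2 fold change -0.26, DESeq2 adjusted p 0.251, and with the block 0.0116 in DESeq2 and 0.0496 in edgeR). Its copy EIF2S3L had a log2 fold change of -0.33 that passed neither fit. Of the 5 eIF2B genes, EIF2B2, of whose exonic bases 23.6% lie under other genes, had 2832, 2704 and 2440 against 2223, 2097 and 2178 (DESeq2 adjusted p 0.130, and with the block 0.0464 in DESeq2 and 0.0514 in edgeR), and the log2 fold changes of the others lay between -0.18 and 0.05. EIF2A, which can bring initiator tRNA without eIF2, had 5718, 4755 and 4877 against 4534, 3863 and 3939 (DESeq2 adjusted p 0.191, and with the block 0.00586 in DESeq2 and 0.0258 in edgeR). EIF2D had 3173, 3377 and 3390 against 2587, 2484 and 3309, so that BRG1 replicate 3 lay above the lowest Control sample. Without BRG1 replicate 3 EIF2D was called lower.

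Start codon selection showed a spread that followed the replicate number. EIF5, the GTPase activator of eIF2, had 11651, 11877 and 5492 normalised counts in Control and 11900, 14066 and 5733 in BRG1 samples. Replicate 3 was low in both groups, and the log2 fold change of 0.13 had a 95% interval of -0.62 to 0.87. EIF1, which keeps the scanning complex open, had 22809, 24676 and 17997 against 24696, 22689 and 19824, and EIF1AX had 7051, 6871 and 6393 against 6522, 6544 and 5402. EIF1AY had too few counts for an adjusted p. None of the 4 tested genes of this role was called.

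Of the 5 genes of late initiation and of eIF5A, 0 were called. EIF5B, the subunit-joining GTPase, had 10061, 8968 and 9752 normalised counts in Control and 9385, 9237 and 8745 in BRG1 samples, with a 95% interval of the log2 fold change of -0.30 to 0.16. EIF6, which keeps the large subunit free until it is mature, had 5471, 6440 and 4697 against 6898, 6088 and 5349. EIF5A, the hypusine-bearing factor that eases stalled peptide bonds, had 27188, 31504 and 27748 against 26031, 28343 and 27718 (95% interval -0.32 to 0.17), and its copy EIF5AL1 had a log2 fold change of -0.12. Several genes carry a factor's name and another role. EIF4A3, a helicase of the exon junction complex, had 4272, 4443 and 4469 against 4048, 4294 and 4345, EIF1AD had a log2 fold change of 0.05, and EEF1E1, a scaffold of the tRNA synthetase complex, had -0.33 with separated groups and a DESeq2 adjusted p of 0.307. The readthrough gene EEF1E1-BLOC1S5 held at most 18.3 normalised counts in any sample.

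Of the 8 paralog pairs compared within samples, 2 separated the groups. EIF1B per 100 counts of EIF1 was 8.15, 6.31 and 7.42 in Control and 5.85, 5.71 and 6.24 in BRG1 samples (log2 difference -0.29, exact permutation p = 0.1, adjusted p 0.4). EIF1B itself had 1859, 1556 and 1335 normalised counts in Control and 1445, 1294 and 1237 in BRG1 samples, which overlapped. The other pair was EEF1A2 to EEF1A1, described with the elongation factors. No pair passed the adjusted threshold, which 3 samples against 3 cannot reach.

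The 6 other ratios overlapped between groups. EIF4A2, the second cytoplasmic eIF4A helicase, had 17364, 12067 and 22528 normalised counts in Control and 20042, 16070 and 23785 in BRG1 samples, so that replicate 2 was lowest and replicate 3 highest in both groups. Other genes share 17.9% of its exonic bases. Its log2 ratio to EIF4A1 was 0.19 higher in BRG1 samples (exact permutation p = 0.6), and without Control replicate 2 the difference was -0.058. EIF4G2, a scaffold without the cap-binding site, had 30033, 29926 and 28056 against 30977, 31032 and 27573, and EIF4G3 had 8694, 7555 and 10387 against 8834, 7935 and 9775. Their ratios to EIF4G1 were lower by 0.19 and 0.21 on the log2 scale (exact permutation p = 0.2 for each) and were lower within each of the 3 replicate numbers. EIF4E2, a cap-binding protein gene linked to repression, had 3802, 4054 and 3624 against 4220, 3622 and 3609, and EIF4E3 had 432, 281 and 366 against 424, 307 and 257. EIF5A2, the isoform of restricted expression, had 370, 329 and 242 against 452, 380 and 239, and it stayed below 2 counts per 100 counts of EIF5A in every sample.

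**Figure D4:**
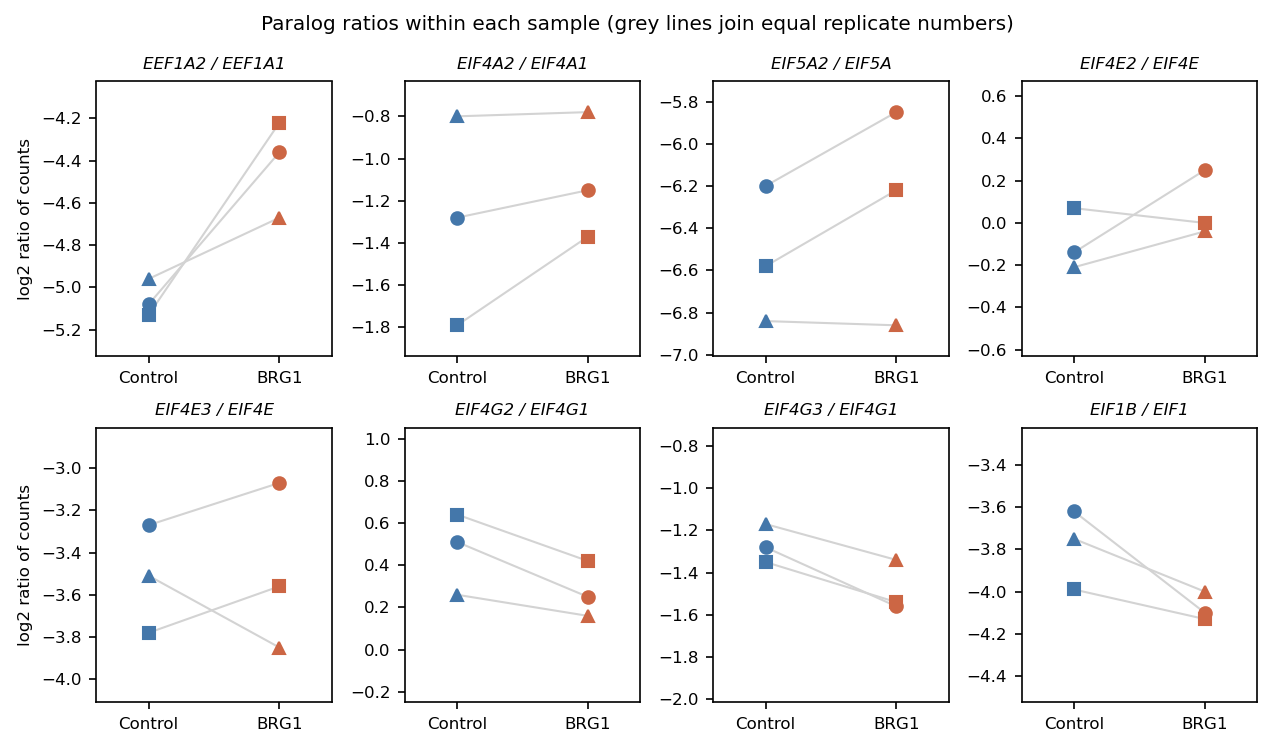
Log2 ratio of the counts of 2 related genes within each sample (y axis, each panel spans the same height) for 8 pairs in Control and BRG1 samples. Marker shapes give the replicate number, and grey lines join samples of the same number. The EEF1A2 to EEF1A1 ratio is higher and the EIF1B to EIF1 ratio lower in all BRG1 samples, and the other 6 pairs overlap.

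The decreases were visible in the library as a whole. The 58 genes together took 4.05%, 4.03% and 4.17% of all counts in Control and 2.99%, 2.80% and 3.27% in BRG1 samples, a difference of -1.06 percentage points between means of 4.09 ± 0.0751% and 3.02 ± 0.233% (SD, n = 3). The 9 called genes took 3.03%, 3.01% and 3.18% in Control and 1.99%, 1.81% and 2.28% in BRG1 samples. The other 49 took between 0.991% and 1.02% in every sample. The split is by the call itself, so the steady share of the 49 is a description. EEF1A1 alone went from a mean of 1.84% to 1.23% of counts, a difference of -0.607 percentage points. Shares within a library are tied to each other, and 86 genes of cytosolic ribosomal proteins, also abundant, had 51 called lower (69 with the block), 0 called higher and a median log2 fold change of -0.43. Of all tested genes DESeq2 called 1.84% lower (6.62% with the block) and 11.0% higher.

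The called factors were all highly expressed. Among the 27 factors with a mean of at least 10000 normalised counts 9 were called lower (33.3%). Among all 723 genes at that level 93 were called lower (12.9%), and among the 615 that are neither factors nor ribosomal proteins 33 were (5.37%). The median log2 fold change was -0.25 in the 27 and -0.08 in the 615. These shares are given as a description, with no test between them.

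A TOP tract and a decrease were then set side by side. Of 9 factors with mRNAs long described as TOP mRNAs (EEF1A1, EEF1B2, EEF1D, EEF1G, EEF2, EIF3E, EIF3F, EIF3H and EIF4B), DESeq2 and edgeR each called 7 lower and 0 higher, and the median log2 fold change was -0.66. Of all tested genes DESeq2 called 1.84% lower and edgeR 1.02%. All 9 factors of this list had every BRG1 sample below every Control sample, as did 9.92% of all tested genes. The 2 not called were EEF1D and EIF3F. This list was drawn up when decreases of ribosomal protein genes in these samples were already known, so it is not independent evidence of the direction. PABPC1, a poly(A)-binding protein gene with a well known TOP mRNA, had 42944, 45577 and 50075 normalised counts in Control and 54029, 37826 and 40587 in BRG1 samples (95% interval of the log2 fold change -0.43 to 0.30) and was not called. TPT1 and NPM1, whose mRNAs are also described as TOP mRNAs, were called lower. Their log2 fold changes were -0.50 and -0.45 (DESeq2 adjusted p 0.000112 and 0.000396), and both separated the groups. TPT1 and NPM1 were picked outside the lists, so they are not independent evidence of the direction either.

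Read from the annotated start sites printed above, 4 of the 11 factors with a tract were called lower (36.4%, median log2 fold change -0.31, 10 below 0) and 2 of the 36 tested factors without it (5.56%, median -0.06). The latter were EEF1B2 and EEF1G, both in the list of TOP mRNAs above, so factors without a tract at the annotated base include described TOP mRNAs. The remaining 3 called genes had no window. This split depended on the fit. EIF3M, which has the tract, was not called by edgeR. With the replicate block DESeq2 also called EIF2A, EIF2S3, EIF3D, EIF3F and EIF3K, which have the tract, and EIF2B2 and EIF3C, which do not. With the block edgeR added EIF2A, EIF2S3 and EIF3F with the tract and EIF3C without it. Among ribosomal protein genes the share called lower was alike with the tract (26 of 44, 59.1%, median -0.40) and without it (14 of 24, 58.3%, median -0.44). Genes without the tract can here too have TOP mRNAs whose annotated start is not the start used. This comparison therefore does not set TOP mRNAs against others. In all tested genes with a window, 59 of 597 with the tract were called lower (9.88%) and 153 of 11336 without it (1.35%). Leaving out ribosomal proteins and the factors themselves, the counts were 29 of 542 (5.35%) and 137 of 11276 (1.21%). By number of pyrimidines after the C, EIF4B (4) had a log2 fold change of -0.86 and EIF4A2 (5) of 0.20. The 5 factors with 6 lay between -0.66 and -0.25, EIF2A and EIF3K with 7 had -0.31 and -0.25, and EIF3D and EIF3F with 9 had -0.27 and -0.42.

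**Figure D5:**
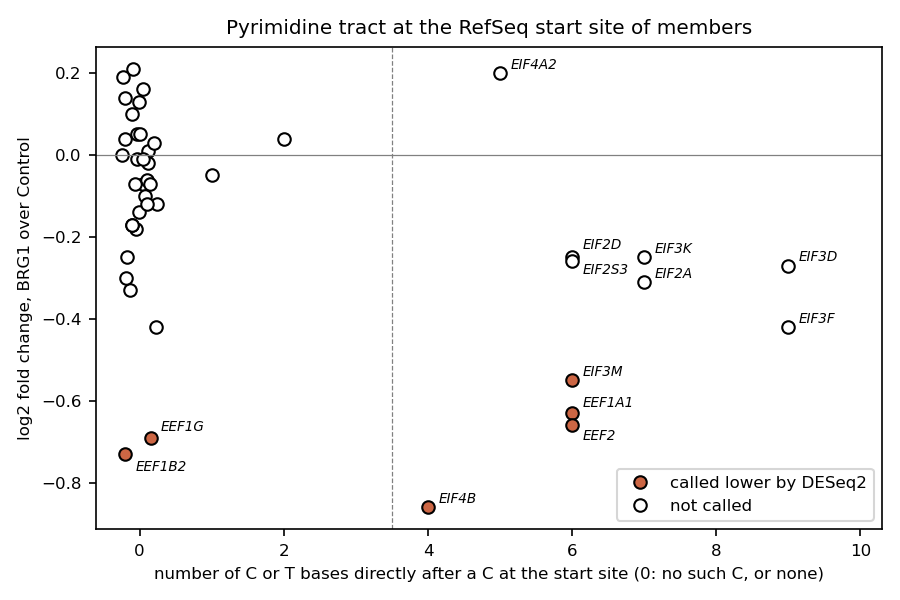
Log2 fold change (BRG1 over Control, y axis) of factors with a RefSeq start-site window against the number of C or T bases directly after a C at the start (x axis, points at 0 spread sideways). Filled points were called lower by DESeq2, and the dashed line marks the minimum of 4 bases. Of the 11 factors right of the line 10 lie below 0 and 4 are filled, and left of it 2 are filled.

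Regulators of the factors were taken from a list of 47 genes of the same pathways. DESeq2 called 2 higher (4.26%) and 1 lower (2.13%), beside 11.0% and 1.84% of all genes, and edgeR called 1 and 1. EIF2AK2, the double-stranded RNA kinase PKR that phosphorylates eIF2 alpha, rose from 5019, 3694 and 3696 normalised counts in Control to 14435, 15572 and 11712 in BRG1 samples. The groups were wide apart, with a 3.36-fold mean difference (log2 fold change 1.75, standard error 0.20, DESeq2 adjusted p 5.2e-17, edgeR adjusted p 0.000546). The other eIF2 alpha kinases did not pass the test. EIF2AK1 had 6919, 6524 and 7849 against 7096, 5886 and 7511, EIF2AK3 had 785, 779 and 576 against 1155, 1048 and 724, and EIF2AK4 had 25969, 22985 and 26779 against 21825, 20272 and 23103. With the replicate block EIF2AK3 was called higher (adjusted p 0.0173 in DESeq2 and 0.0322 in edgeR), while EIF2AK4 was called lower by DESeq2 (0.0484) and not by edgeR (0.0891).

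PAIP2B, a repressor that binds poly(A)-binding protein, fell from 411, 408 and 437 to 265, 212 and 275 normalised counts (log2 fold change -0.75, DESeq2 adjusted p 0.00116, edgeR adjusted p 0.0477). PELO, a ribosome rescue factor, had 2540, 2579 and 1993 against 6708, 4052 and 2810 (log2 fold change 0.93, DESeq2 adjusted p 0.0244), a call that edgeR did not make (adjusted p 0.101) and that DESeq2 lost in 5 of the 6 fits that leave out a sample. Exons of ITGA1 and PELO-AS1 share 13.8% of the exonic bases of PELO, and ITGA1 was called higher too (log2 fold change 1.30, DESeq2 adjusted p 0.00152), with 348, 157 and 250 normalised counts against 791, 611 and 454. The highest PELO value belonged to BRG1 replicate 1, without which the log2 fold change of PELO was 0.54. With the replicate block DESeq2 called 5 regulators higher, adding EIF2AK3, PPP1R15B and LARP4, and 5 lower, adding EIF2AK4, MLST8, ETF1 and ABCE1. That fit called 13.4% of all genes higher and 6.62% lower. edgeR with the block called the same 5 higher and 3 lower, PAIP2B, MLST8 and EEF2KMT (adjusted p 0.0498), beside 13.7% and 5.68% of all genes.

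The repressors of eIF4E and the mTOR kinase overlapped between groups. EIF4EBP1 had 3232, 6497 and 4039 normalised counts in Control and 3086, 4109 and 5164 in BRG1 samples, and EIF4EBP2 had 5052, 4132 and 5267 against 4683, 3753 and 4428. EIF4EBP3 held at most 22.4 in any sample. MTOR had a log2 fold change of 0.09 (95% interval -0.26 to 0.43), and LARP1, the protein that binds the cap and the TOP tract, had 0.01 (95% interval -0.22 to 0.24). These are mRNA levels, and the phosphorylation through which mTOR and PKR act was not measured.

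Targets of the eIF2 stress pathway were counted last. ATF4, the factor translated when eIF2 is phosphorylated, had 40776, 44935 and 29129 normalised counts in Control and 37460, 34760 and 30103 in BRG1 samples. DDIT3 followed the replicate number, with 8773, 10288 and 1406 against 7291, 8902 and 2116. Of 12 textbook ATF4 targets 2 were called higher (16.7%) and 0 lower, beside 11.0% and 1.84% of all genes, and the median log2 fold change was -0.06. With the replicate block DESeq2 called 3 higher, adding SHMT2 (adjusted p 0.0143), and 1 lower, SLC7A11 (adjusted p 0.0103), beside 13.4% and 6.62% of all genes. edgeR with the block called 3 higher and 0 lower, beside 13.7% and 5.68% of all genes. The 2 called in both fits without the block were VLDLR, a lipoprotein receptor gene, with 40.2, 29.3 and 47.7 against 762, 545 and 361, and NUPR1, a stress-induced chromatin protein gene, with 57.3, 86.8 and 31.0 against 900, 661 and 782.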

How the data were processed

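RNA-seq libraries (unstranded, poly(A), 500 ng RNA, read pairs of 78 bases) came from 3 Control and 3 BRG1 samples. The deposited table holds an estimated count for each gene and sample, which the authors made with STAR (2.5.3a), Salmon (0.8.2) and tximport (TPM scaled by transcript length and library size) on hg38 with GENCODE release 24. FastQC (0.11.5) and DESeq2 (1.22.2) also stand in the submitters' processing notes. The scaling removes differences in mean transcript length between samples, while counts of different genes still depend on transcript length. Shared or antisense reads leave near-identical and overlapping genes uncertain. Counts were rounded. Totals of 29699741 to 63613710 set the counting error.

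The whole table (18096 genes with a count) was fitted with the DESeq2 (1.42.0) Wald test in R 4.3.3, BRG1 against Control without covariate, with Benjamini-Hochberg adjustment over 15991 genes and calls at an adjusted p under 0.05. The study's methods name DESeq2. Normalised counts are divided by median-ratio size factors. The edgeR (4.0.16) quasi-likelihood test and voom of limma (3.58.1) with TMM factors, the replicate block, other size factors, a low-count filter (10 counts in 3 samples), a threshold of 0.01 and leaving out each sample were alternatives. Each fit over all samples was tested on simulated data. In its setting with few changed genes, false calls were far above the nominal rate in DESeq2, with and without the block. In edgeR they were also above it, by much less. For this reason edgeR counts are given as well. The simulated samples carried no effect of the replicate number, so the test does not cover data paired in that way.

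Deviations from the group means, over 11686 genes with a mean of at least 100, correlated at 0.52, 0.52 and 0.61 between same-numbered Control and BRG1 samples and at -0.52 to 0.07 otherwise, so the numbers were taken to pair the samples. Deviations within a group of 3 samples cancel out, so positive correlations of same-numbered samples go with lower ones elsewhere. The contrast between both sets of correlations is thus not independent evidence of pairing. This pairing comes from the data, as the labels say only that replicates are biological.

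The factors, lists and alternatives were chosen with earlier results of these data known. Values in every sample are given for called factors, the 3 largest changes among means of at least 100, the 3 most abundant per kilobase, paralog pairs and at least 1 gene of each role, and for SMARCA4, called regulators, the EIF2AK and EIF4EBP genes. Other genes with values in every sample were chosen after their values were seen. Gene positions, lengths and overlaps come from GENCODE release 44 (GRCh38) and start-site sequences from RefSeq (GRCh38.p14), so lengths per kilobase are not those the authors used. EEF1AKMT1, EEF1AKMT2 and EEF1AKMT3 were matched by RefSeq synonyms, and EEF1AKMT4 was not matched.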

Additional observations from a re-analysis of the deposited data

How the results depend on the processing

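No factor was called higher under any of the 14 alternatives, and EEF1A1, EEF1B2, EEF1G, EEF2, EIF3E, EIF3L and EIF4B were called lower in all 13 other fits. The 9 lower calls became 17 with the replicate block (pairing same-numbered samples) and 14 in edgeR with the block, and 7 to 10 when a sample was left out. Genes called lower over the whole table, 294, were 146 with edgeR, 169 with limma-voom, 166 with library totals as size factors, 130 at an adjusted p under 0.01, 1035 with the block and 809 in edgeR with the block. Leaving out a sample gave 117 (without BRG1 replicate 2) to 596 (without BRG1 replicate 3), with 172 without BRG1 replicate 1 and 133, 166 and 161 without Control replicates 1, 2 and 3. The 2 higher calls among regulators became 1 with edgeR, with limma-voom and with a threshold of 0.01, 5 with the block in DESeq2 and in edgeR, and 1 to 4 without a sample, 4 being without BRG1 replicate 3. Regulators called lower, 1, were 5 with the block and 3 in edgeR with the block. The median log2 fold change of the factors, -0.16, was -0.11 with library totals and -0.13 with the low-count filter. Under library totals the median of all genes was 0.03, against -0.01. Ratios of 3 paralog pairs changed direction when a sample was left out. EIF4A2 to EIF4A1 ranged from -0.058 to 0.439, EIF5A2 to EIF5A from -0.003 to 0.504 and EIF4E3 to EIF4E from -0.187 to 0.208 on the log2 scale. Genes with a start-site tract called lower, 59, were 33 without ribosomal proteins, a count added after the data were seen that tests fewer genes. The cause of the other changes was not tested. Other calls that the block changed among the factors, regulators and stress targets stand beside their results. With 3 samples a group, equal log2 fold changes gave different adjusted p-values, as for EIF3F (0.0514) and EIF3C (0.169), both at -0.42 in DESeq2.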
